A study of Mus musculus with 18 samples.

Results

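The KLF genes encode zinc finger transcription factors, and 9 of them were followed here through neutrophil differentiation: Klf1, Klf2, Klf3, Klf4, Klf5, Klf6, Klf7, Klf10 and Klf13. They are a list of symbols drawn up with earlier results of these data known, it leaves out other KLF genes, and it makes up 9 of the 34896 genes in the expression table. RNA was measured in granulocyte-macrophage progenitors (GMPs), pre-neutrophils (preNeu) and mature neutrophils (matNeu) sorted from the bone marrow of wild type C57BL/6 mice aged 6 to 12 weeks, with 3 libraries for each cell type. The same cell types gave 1 ChIP-seq library each for H3K4me2, a histone mark of active and primed promoters and enhancers. CHD4, the ATPase subunit of NuRD, a complex that moves nucleosomes and removes acetyl groups from histones, was mapped with 1 library from GMPs of wild type (WT) mice and 1 from GMPs of Gfi1-/- mice (Gfi1KO), which share strain and age and differ in the gene of the transcriptional repressor GFI1. ATAC-seq, which marks open chromatin, was done on preNeu and matNeu cells, but the peak lists of these stages were identical and were used as 1 list of 16307 peaks whose stage is not settled.

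All KLF proteins end in 3 C2H2 zinc fingers that recognise GC-rich and CACCC-type DNA, and they differ in what lies before the fingers. KLF3 recruits the corepressor CtBP, while KLF10 and KLF13 carry a domain that recruits SIN3A. KLF1, KLF2, KLF4, KLF5, KLF6 and KLF7 are mainly known as activators. In blood cells KLF1 is the master activator of the red cell lineage, KLF4 is known for monocyte differentiation, and KLF2 keeps T cells and myeloid cells quiescent.

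The 9 RNA libraries followed the cell types in their titles, although a second label named another cell type for 13 of the 18 samples, all 9 RNA libraries among them. Summed over 6 GMP markers, the level was 45270 to 47150 TPM (transcript level scaled to the same total in each library) in the GMP libraries and 9.32 to 32.7 TPM in the matNeu libraries. For 6 preNeu markers it was highest in preNeu cells (102700 to 130300 TPM), and for 6 matNeu markers in matNeu cells (25510 to 29580 TPM). The read depth behind TPM is unknown, and whether the 3 libraries of a group came from separate mice is not given, so that p-values measure only the spread between these libraries. In bulk samples fewer cells of a type and less RNA per cell cannot be told apart.

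The 9 KLF genes together made up more of the RNA at each stage, and the leading member changed. Their summed TPM was 161 to 170 in GMPs, 428 to 515 in preNeu cells and 1145 to 1523 in matNeu cells, so that no library of one stage overlapped with another stage. Klf13 was the most abundant member in GMPs and took 37.8 to 48.7% of the sum there, and its share was 17.3 to 18.3% in matNeu cells. For Klf6 the share was 14.8 to 19.1% in GMPs, 32.3 to 39.6% in preNeu cells and 53.9 to 64.7% in matNeu cells, where it was the leading member in every library.

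**Figure D1:**
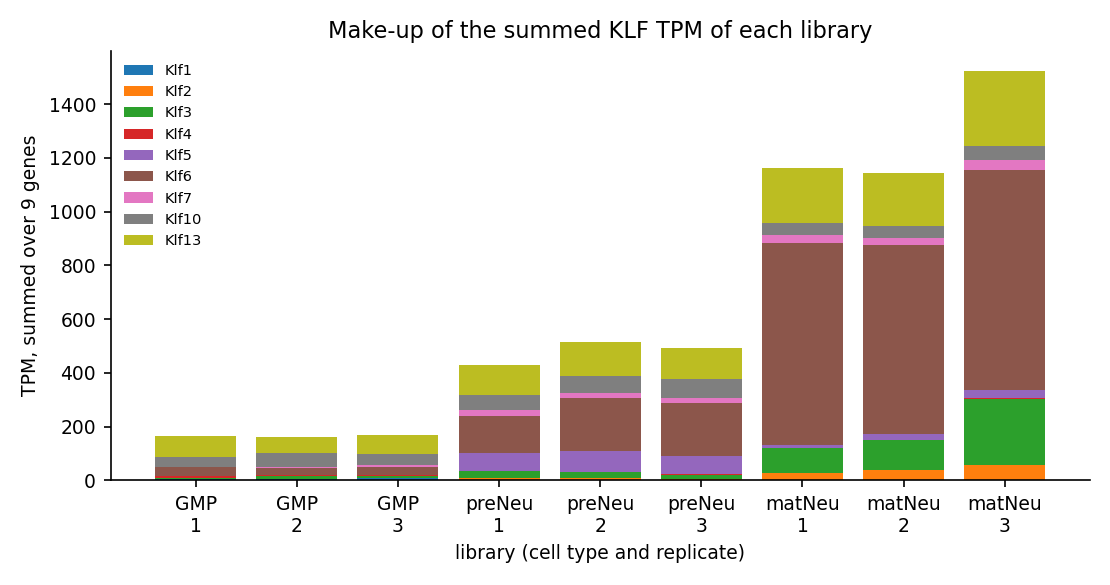
Summed TPM of the 9 KLF genes (vertical axis, linear) in each of the 9 RNA libraries, with 1 coloured segment for each gene. The sum lies between 161 and 170 in GMPs and between 1145 and 1523 in matNeu cells, where Klf6 is the largest segment of every bar.

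The order of the members changed at each stage. In GMPs Klf13 (71.4 ± 10.1 TPM, SD, n = 3) lay above Klf10 (42.5 ± 8.26) and Klf10 above Klf6 (28.6 ± 4.20), with no overlap between neighbours. Below them Klf3, Klf4, Klf1 and Klf7 had means between 4.16 and 7.69 TPM, and each overlapped with the next in this order. Klf5 and Klf2 were under 1 TPM in all GMP libraries. In preNeu cells the order was Klf6, Klf13, Klf5, Klf10, Klf3, Klf7, Klf2, Klf1 and Klf4, in which the ranges of Klf5 and Klf10, of Klf3 and Klf7, and of Klf1 and Klf4 overlapped. In matNeu cells Klf6 stood alone at 758 ± 58.3 TPM, above Klf13 (227 ± 44.3) and Klf3 (149 ± 84.3), whose ranges overlapped with each other. Klf10, Klf2, Klf7 and Klf5 followed at means of 47 to 21.3 TPM, each overlapping with the next, and Klf4 and Klf1 were last at 0.533 and 0.0416 TPM.

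Differences were tested with limma on log2(TPM + 1) over the 13061 genes that reached 1 TPM in 3 or more libraries, at an adjusted p under 0.05. All 9 members passed this filter, but Klf1 and Klf4 passed it only because of their GMP level, and Klf2 and Klf5 only because of the later stages. For these genes the filter favoured the direction of the calls against GMPs, and such calls are part of the counts that follow. Between GMPs and preNeu cells 7 members were called higher and 2 lower, while 14.7% of all tested genes were called higher and 44.3% lower. From preNeu to matNeu cells 5 members were higher and 1 lower, against 22.9% and 39.8% of all tested genes. For matNeu cells against GMPs, 6 members were higher and 2 lower, against 22.8% and 54.1%. The median log2 change of the members was 1.45, 0.61 and 2.65 in these comparisons, beside -0.52, -0.32 and -0.92 over all tested genes.

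Because the median of all genes lay below 0, the scaling matters for the background. When TPM was rescaled by the median ratio, the medians of all tested genes were -0.08, 0.00 and -0.11 in the same order. Of all calls, 46.0%, 49.7% and 47.2% were then in the higher direction, and 48.1%, 50.3% and 50.2% after quantile normalization, in place of 25%, 36.5% and 29.6%. Under both scalings the first comparison still gave 7 members higher and 2 lower, and the second 5 higher and 1 lower. The third gave 7 higher and 2 lower, since Klf10 was then called. A log2 change on the TPM + 1 scale understates the change of members near 0.

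**Figure D2:**
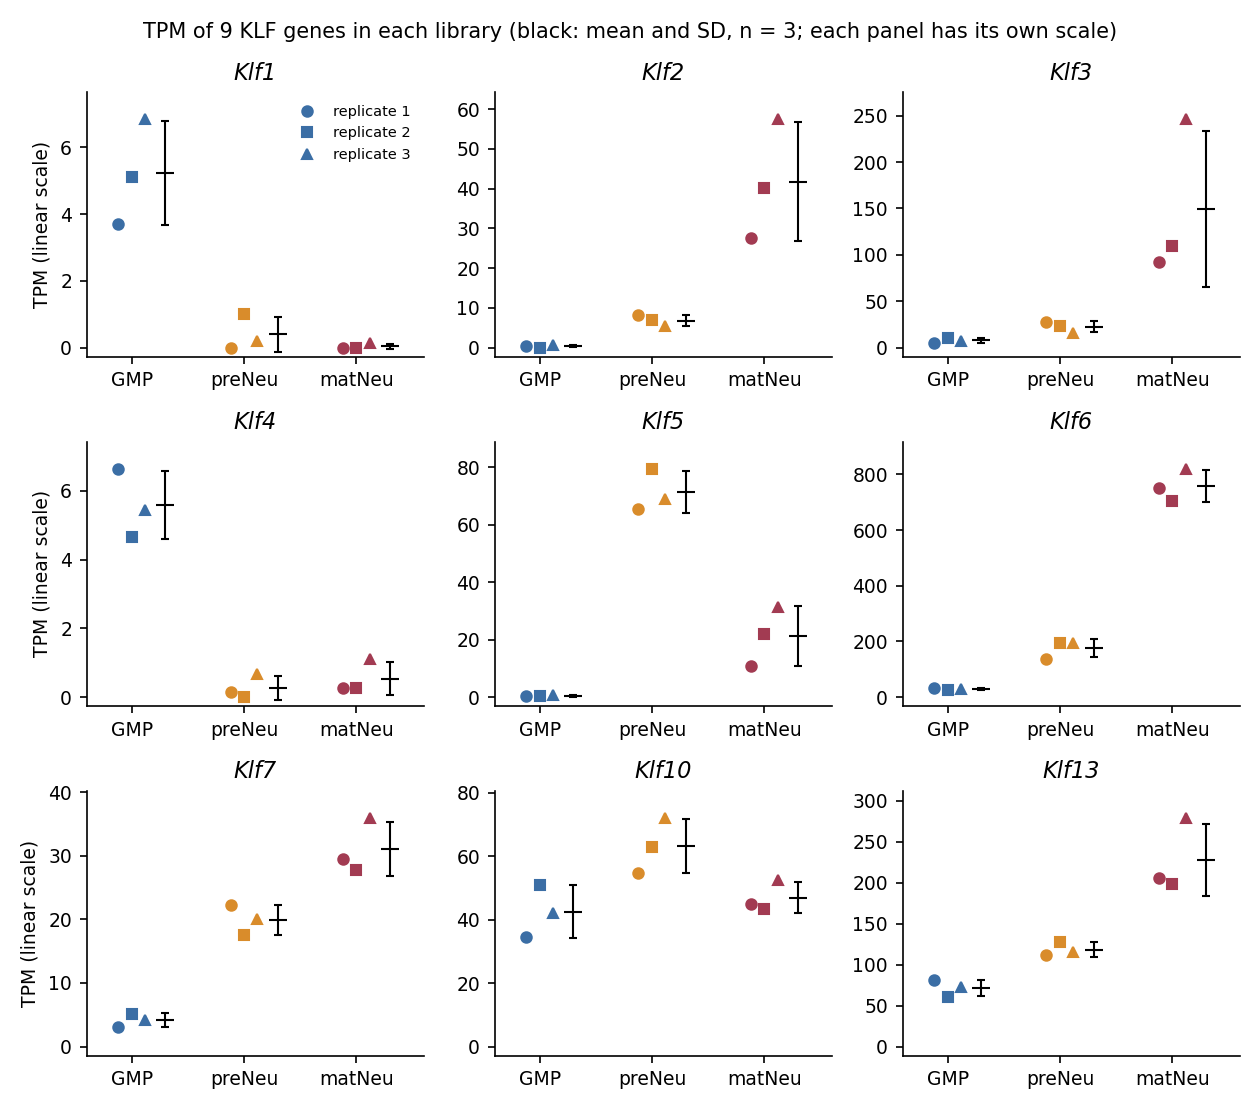
TPM of each KLF gene (vertical axis, linear, own scale in each panel) in GMP, preNeu and matNeu libraries, with symbols for replicates and the mean with its SD in black (n = 3). Klf2, Klf3, Klf6, Klf7 and Klf13 step upward at both stages, Klf5 is highest in preNeu cells, Klf1 and Klf4 are highest in GMPs, and Klf10 stays within 34.5 and 71.9 TPM.

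Klf6, an activator induced by growth factors and injury, was listed at 31.8, 23.8 and 30.0 TPM in the GMP libraries, at 138, 196 and 196 in preNeu and at 751, 704 and 820 in matNeu. Every preNeu library lay above every GMP library and below every matNeu library. The log2 change was 2.58 (SE 0.165, adjusted p = 6.9e-07) in the first step and 2.11 (adjusted p = 1.02e-06) in the second, which is 6.18-fold and 4.30-fold on the means. Across the whole path the mean was 26.6-fold higher (adjusted p = 1.48e-09). This was the smallest adjusted p of any member in any comparison.

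Klf2, the quiescence factor, was low in GMPs, at 0.470, 0 and 0.723 TPM. It stood at 8.07, 6.91 and 5.38 TPM in preNeu cells and at 27.6, 40.1 and 57.4 in matNeu cells, with no overlap between stages. On the log2(TPM + 1) scale the 2 steps were 2.50 (SE 0.324, adjusted p = 8.05e-05) and 2.41 (SE 0.324, adjusted p = 6.85e-05). The means rose 17.1-fold and then 6.14-fold, and with 0.1 TPM added in place of 1 the log2 changes were 4.24 and 2.56. The first step was thus larger as a ratio, from a GMP level near 0. Klf2 was tested only because of its later stages, which favoured a rise from GMPs.

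Klf7, an activator known from neurons, had 3.06, 5.16 and 4.24 TPM in GMPs, 22.2, 17.5 and 20.1 in preNeu cells and 29.4, 27.8 and 35.9 in matNeu cells. Its first step was clear of the spread between libraries (log2 change 2.04, SE 0.220, adjusted p = 2.42e-05). The second was smaller, at 0.61 (SE 0.220, adjusted p = 0.0315), and although the groups did not overlap, the call was lost without preNeu replicate 2 (adjusted p = 0.103) or 3 (0.0620), or without matNeu replicate 1 (0.0591) or 3 (0.106).

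Klf5, a growth-promoting activator of epithelia, was the member with a peak in the middle. It was listed at 0.192, 0.249 and 0.850 TPM in GMPs, at 65.3, 79.4 and 69.0 in preNeu cells and at 10.7, 21.9 and 31.3 in matNeu cells. Its rise into preNeu cells was the largest log2 change of any member in any comparison, at 5.68 (SE 0.348, adjusted p = 5.29e-07). Klf5 was tested only because of its later stages, which favoured a rise from GMPs. In the next step it fell by 1.81 on the log2 scale (SE 0.348, adjusted p = 9.12e-04), to a matNeu mean that was 3.35-fold below the preNeu mean. Even so, all matNeu libraries stayed above all GMP libraries (log2 change 3.87, adjusted p = 1.64e-06).

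Klf1 and Klf4 were GMP genes. Klf1, the erythroid activator, stood at 3.72, 5.12 and 6.84 TPM in GMPs, at 0, 0.999 and 0.204 in preNeu cells and at 0, 0 and 0.125 in matNeu cells. Klf4, the monocyte factor, was listed at 6.64, 4.67 and 5.43 TPM in GMPs, at 0.142, 0 and 0.656 in preNeu cells and at 0.251, 0.254 and 1.09 in matNeu cells. Both fell in the first step, Klf1 by 2.19 (SE 0.319, adjusted p = 1.82e-04) and Klf4 by 2.40 (SE 0.311, adjusted p = 8.11e-05) on the log2 scale. Since both were tested only because of their GMP level, the filter favoured a fall, and these p-values are no independent support for it. In the second step their levels overlapped between stages, with log2 changes of -0.37 (adjusted p = 0.342) and 0.27 (adjusted p = 0.482).

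Markers of other lineages were measured beside these genes. The summed level of 8 monocyte and macrophage markers was 1037 to 1258 TPM in GMPs, 59.4 to 95.8 in preNeu cells and 453 to 594 in matNeu cells. The matNeu sum rested mainly on Csf1r, Ctss and Adgre1, with means of 304, 114 and 83.8 TPM, while Irf8, Ly86, Ccr2 and Cx3cr1, named here after their values were seen, went from means of 513, 150.5, 127 and 25.8 TPM in GMPs to 11.2, 3.29, 0.573 and 0.853 in matNeu cells. Between GMPs and preNeu cells 1 of the 8 was called higher and 6 lower, with a median log2 change of -3.73, against 14.7% and 44.3% of all tested genes. Between preNeu and matNeu cells 3 were higher and 2 lower, with a median log2 change of -0.16. The shares over all tested genes were 22.9% and 39.8% in that step. Of 12 erythroid genes 8 could be tested, and between GMPs and preNeu cells 2 were higher and 2 lower, against 14.7% and 44.3% of all tested genes, with a median log2 change of -0.61. Gata1, the partner of KLF1 in red cell progenitors, had 9.68, 11.4 and 17.8 TPM in GMPs and 0.637, 0.773 and 1.58 in preNeu cells (log2 change -2.79, adjusted p = 2.59e-05). Tfr2, a transferrin receptor, fell by 2.91 (adjusted p = 9.89e-04). The globins Hbb-bs (log2 change 1.79, adjusted p = 6.44e-04) and Hba-a2 (2.77, adjusted p = 7.71e-03) went the other way, to at most 12.6 and 17.0 TPM in preNeu cells, and Hba-a2 shares nearly all of its sequence with Hba-a1, so reads may be split between them. Summed over the erythroid list, GMP libraries had 43.6 to 65.9 TPM, preNeu libraries 20.7 to 46.5 and matNeu libraries 20.5 to 41.9. Markers of T, NK and B cells summed to 555 to 701, 259 to 279 and 72.4 to 141 TPM in the 3 stages, and those of megakaryocytes and platelets to 35.4 to 50.0, 5.96 to 10 and 5.01 to 8.29 TPM. The part of other cells in the Klf1 and Klf4 levels was not tested.

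Klf3, the CtBP-binding repressor, was listed at 5.05, 10.5 and 7.55 TPM in GMPs, at 27.6, 23.5 and 16.1 in preNeu cells and at 92.1, 109 and 246 in matNeu cells. No stage overlapped with another. The log2 change was 1.45 (SE 0.371, adjusted p = 6.38e-03) in the first step and 2.57 (SE 0.371, adjusted p = 1.17e-04) in the second, and its matNeu mean was 19.4-fold above its GMP mean. One matNeu library, replicate 3, held more than the other 2 together, and without it the second step still had a log2 change of 2.15 (adjusted p = 1.65e-04).

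Klf13 and Klf10 belong to the SIN3A-binding group. Klf13, known from T cells as an activator of a chemokine gene, had 81.1, 60.9 and 72.1 TPM in GMPs, 111, 128 and 115 in preNeu cells and 206, 198 and 278 in matNeu cells. It rose in both steps without overlap, by 0.73 (SE 0.161, adjusted p = 2.69e-03) and 0.92 (SE 0.161, adjusted p = 4.61e-04) on the log2 scale. Its 3.18-fold rise over the whole path was the smallest among the members called higher.

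Klf10, a target of TGF-beta signaling, had the smallest change over the whole path. It stood at 34.5, 51.0 and 42.1 TPM in GMPs, at 54.8, 62.8 and 71.9 in preNeu cells and at 44.8, 43.5 and 52.6 in matNeu cells. The first step was 0.57 on the log2 scale (SE 0.177, adjusted p = 0.0174), a call that was lost without GMP replicate 1 (adjusted p = 0.0722) or preNeu replicate 3 (adjusted p = 0.0643). In the second step every matNeu library lay below every preNeu library, yet the change of -0.42 missed the threshold (adjusted p = 0.0613). It passed without GMP replicate 1 (adjusted p = 0.0461) or 2 (0.0498), without preNeu replicate 1 (0.0457) or without matNeu replicate 3 (0.0486). After rescaling by the median ratio its direction turned, at 0.045 (adjusted p = 0.815), and after quantile normalization it was -0.12 (adjusted p = 0.559). Between GMPs and matNeu cells the ranges overlapped (log2 change 0.15, adjusted p = 0.444), but after rescaling by the median ratio the same comparison gave 1.13 (adjusted p = 5.66e-05).

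**Figure D3:**
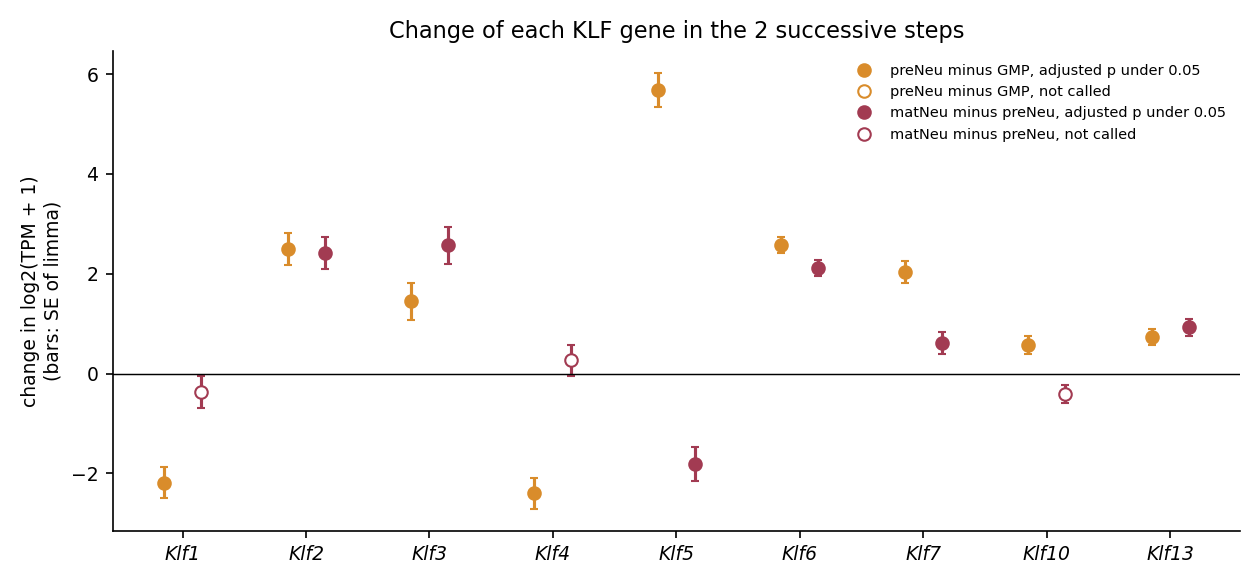
Change in log2(TPM + 1) of each KLF gene (vertical axis, bars are the SE of limma) from GMP to preNeu (orange) and from preNeu to matNeu (red), with open symbols for changes that were not called. Klf2, Klf3, Klf6, Klf7 and Klf13 are above 0 in both steps, and Klf5 goes from 5.68 to -1.81.

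Over all tested genes the matNeu libraries were nearly as alike as those of the other stages. Pearson's r of log2(TPM + 1) was 0.9605 to 0.9669 between them, 0.9624 to 0.971 within GMPs and 0.9624 to 0.9703 within preNeu cells. All 9 members had their highest matNeu level in replicate 3, which held the highest of the 3 values for 45.0% of the tested genes that were above 0 in these libraries. Immediate early genes, which respond within minutes to stimulation or cell handling, also had their highest summed level there. Of 16 such genes 15 were tested, and 13 were called higher in matNeu than in preNeu cells, against 22.9% of all tested genes, with a median log2 change of 3.46 over the 15. Their summed level was 400 to 510 TPM in GMPs, 509 to 550 in preNeu cells, and 9872, 9009 and 16520 in the matNeu libraries, the highest again in replicate 3.

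Among them Junb, a subunit of AP-1, went from 20.7, 27.1 and 23.7 TPM in preNeu cells to 1986, 1713 and 2564 in matNeu cells (log2 change 6.38, adjusted p = 5.76e-10). Dusp1, a phosphatase of MAP kinases, had a log2 change of 6.57, Btg2, an antiproliferative gene, of 4.10 and Ier3 of 3.46. Klf2, Klf4, Klf6 and Klf10 are themselves known as genes of rapid response, and the part of cell handling in their matNeu levels was not tested. In the fit without matNeu replicate 3, Klf2, Klf3, Klf6 and Klf13 were still called higher in matNeu than in preNeu cells, while Klf7 was not.

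The rest of the family was measured as well. Of 8 further KLF genes, Klf14, Klf15 and Klf17 were listed at 0 in every library and 5 could be tested, of which 1 was higher and 4 lower in preNeu cells than in GMPs, with a median log2 change of -1.08 beside -0.52 over all tested genes, of which 14.7% were higher and 44.3% lower. Klf12, another CtBP-binding repressor, had 45.7, 43.3 and 33.5 TPM in GMPs, 12.5, 15.9 and 17.0 in preNeu cells and 73.5, 66.6 and 109 in matNeu cells. It thus dipped (log2 change -1.38, adjusted p = 3.22e-04) and then rose (2.36, adjusted p = 3.74e-06), the only one of these 5 genes called in the second step. Klf9 (-1.60, adjusted p = 1.54e-03) and Klf16 (-0.92, adjusted p = 0.0227) were lower and Klf11 (0.78, adjusted p = 0.0127) higher in preNeu cells than in GMPs.

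The SP genes encode the sister family with the same type of zinc fingers. Of 9 SP genes 4 were tested, 2 of which rose in the first step, against 14.7% of all tested genes, with a median log2 change of 0.66. Sp3 went from 85.1, 80.1 and 70.6 TPM in GMPs to 136, 170 and 161 in preNeu cells (log2 change 0.97, adjusted p = 1.71e-04), and Sp4 had a log2 change of 1.43 (adjusted p = 4.62e-03). In the second step Sp3 fell by 0.41 on the log2 scale (adjusted p = 0.0246). Sp1 and Sp2 were called in neither step.

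Of 8 coregulators that KLF proteins bind, 2 were higher and 1 lower in preNeu cells than in GMPs, and 4 were higher and 3 lower in matNeu than in preNeu cells, with median log2 changes of 0.17 and 0.33. Over all tested genes the shares were 14.7% and 44.3% in the first step and 22.9% and 39.8% in the second, so that 3 of 8 lower was near the background. Sin3b, a scaffold of histone deacetylase complexes, rose in the second step from 91.3, 85.7 and 77.2 TPM to 170, 149 and 146 TPM (log2 change 0.86, adjusted p = 1.25e-04). The acetyltransferase genes Kat2b (1.23, adjusted p = 1.8e-03) and Ep300 (1.03, adjusted p = 4e-03) rose as well. Ctbp2, which encodes a partner of KLF3, fell by 1.08 (adjusted p = 6.99e-04).

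A list of 10 genes that act upstream of Klf2 and Klf4 or turn KLF proteins over had 2 higher and 4 lower in the first step and 5 higher and 3 lower in the second, with medians of -0.19 and 0.39. Against the same shares, 2 of 10 higher and 4 of 10 lower in the first step and 3 of 10 lower in the second were near the background. Mef2c, which encodes an activator of Klf2 and Klf4, had 95.3, 107 and 97.0 TPM in GMPs and 10.3, 10.7 and 15.4 in preNeu cells (log2 change -2.96, adjusted p = 2.01e-05), and in the second step its log2 change was 0.25 (adjusted p = 0.506). Mef2d fell in the first step (log2 change -2.91, adjusted p = 1.26e-05) and rose in the second (1.85, adjusted p = 1.98e-04). Map2k5, a kinase upstream of MEF2 proteins, fell by 2.55 in the second step (adjusted p = 3.86e-06). Wwp1, which encodes a ubiquitin ligase of KLF2 and KLF5, fell by 2.26 in that step (adjusted p = 3.04e-05).

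The genes whose patterns were most like those of the members were taken from 6884 protein-coding candidates with a mean of at least 10 TPM. The likeness is Pearson's r of log2(TPM + 1) over the same 9 libraries, which share cell types, so that r mostly reflects the 3 stages. For Klf6 these were Slfn2 and Ptafr (r of 0.997 for both), for Klf2 Ostf1 (0.994) and Rhog (0.993), for Klf5 Ckap4 (0.995) and Grk6 (0.990), and for Klf13 Cdkn1b (0.990) and Slc35a5 (0.989). Klf4 was closest to Mef2c and Fut7 (0.987 for both), Klf1 to Nme4 (0.991) and Tmbim1 (0.987), Klf3 to Heca (0.988) and Tsc22d4 (0.984), and Klf7 to Nudt4 and Slc40a1 (0.993 for both). For Klf10 the best values were lower, with Rtn3 at 0.931 and Fli1 at 0.929.

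The chromatin at the 9 genes was read in a window of the gene and 10 kb on either side, in coordinates of the mouse genome build GRCm38. Together the windows held 400730 bp. Each ChIP-seq or ATAC-seq list came from 1 library, so that no difference between lists has a replicate check, and the fold enrichment of a peak is the value the authors' peak caller gave over its background.

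In WT GMPs CHD4 sites lay at 4 of the 9 genes, Klf3, Klf6, Klf7 and Klf13, which were all called higher in matNeu cells than in GMPs, as were Klf2 and Klf5. They held 23 CHD4 sites in all, 7 at Klf3, 7 at Klf6, 5 at Klf7 and 4 at Klf13. No CHD4 site lay within 10 kb of Klf1, Klf2, Klf4, Klf5 or Klf10. Of all 11865 tested protein-coding genes, 43.3% had a site in such a window, so that 4 of 9 is near the background. Per 100 kb of window the 9 genes held 5.74 sites, all of them at these 4, against 2.74 over all tested protein-coding genes. A longer window can hold more sites, and Klf7, Klf13 and Klf3 had the longest (112836, 72565 and 49514 bp), while that of Klf6 was 28913 bp. With windows of 50 kb, Klf2 had 6 sites and Klf4 had 2, while Klf1, Klf5 and Klf10 still had 0. The median fold enrichment of the 23 sites was 8.41, beside 7.72 over all 35790 sites.

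Klf6 (chromosome 13, 5861482 to 5870394, plus strand) held the strongest of these sites. Its fold enrichment was 42.5 at chr13:5875362-5876235, with the summit 14154 bp past the TSS in the intergenic region downstream of the gene. A second downstream site at chr13:5873423-5874149 had a fold enrichment of 19.9, and the other 5 sites of Klf6 were between 3.995 and 14.0. One of these, at chr13:5861494-5861678, began just past the TSS with a fold enrichment of 4.42. It held the annotated start of another Klf6 transcript at position 5861541. No CHD4 peak held the outermost TSS of a member, from which distances are counted here. In WT GMPs a CHD4 peak held the TSS of 6.34% of all 11865 tested protein-coding genes. The lack of such a peak at the members is thus near the background.

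At Klf3 (chromosome 5, 64803388 to 64832901, plus strand) the strongest site was at chr5:64812173-64813254 with a fold enrichment of 35.1. Its summit lay 9376 bp into the gene, in an intron of the longest transcript and 380 bp past the start of a shorter annotated Klf3 transcript, which the site contained. At Klf7 (chromosome 1, 64029447 to 64122282, minus strand) 4 of the 5 sites were intronic, led by chr1:64118038-64119241 with a fold enrichment of 22.0, 3897 bp past the TSS. Klf13 (chromosome 7, 63886351 to 63938915, minus strand) had 4 intronic sites with fold enrichments of 6.52 to 9.31, 3 of them between 26949 and 27891 bp past the TSS. Klf3, Klf7 and Klf13 overlap other annotated genes, of which E030018B13Rik lies opposite to Klf13, and whether the authors' TPM took account of strand is not stated.

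Of the 23 sites, 6 had a CHD4 peak in Gfi1KO GMPs, a share of 26.1% beside 18.5% of all 35790 sites. The 95% Wilson interval of 12.5 to 46.5% covers counting error only. It treats the sites as independent, although several lie close together at the same gene. The share of kept sites depends on enrichment. Among 10 enrichment classes of all sites it was 92.9% in the strongest and 3.91% in the weakest. The shares of the classes added up to 4.90 kept sites for these 23. Klf7 kept 3 of 5 sites, Klf6 2 of 7, Klf3 1 of 7 and Klf13 0 of 4. The 3 members with a Gfi1KO site stand beside 14.3% of all tested genes. All 3 sites in the strongest class were kept, those with fold enrichments of 42.5, 35.1 and 22.0, and their peaks in Gfi1KO had fold enrichments of 18.0, 4.80 and 4.46. Sites of 13.0 and 9.75 upstream of Klf3 and of 14.0 at the end of Klf6 had no Gfi1KO peak. Depth was unknown for both lists, and the Gfi1KO list was shorter (7316 peaks), so that a lost peak is not a measure of lost CHD4.

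The sequences at CHD4 summits are shown for the 3 kept sites of the strongest class and for 3 sites without a Gfi1KO peak. The latter are those of 14.0 at the end of Klf6, 13.0 upstream of Klf3 and 9.28 at Klf13. The Klf13 site was not picked by enrichment: its neighbour of 9.31 held no match to any of the motifs below. Lost Klf3 sites of 11.0 and 9.75 are not shown either, so the 3 lost windows do not stand for all lost sites. They are 200 bases around the summit from GRCm38, plus strand, 5′ to 3′, and for the site at the end of Klf6 the 180 bases outside the annotated exon. Capitals mark matches on either strand to AAATCA (the core of the GFI1 motif), GAGGAA (SPI1, also called PU.1), CACCC (KLF), TGTGGT (RUNX) and TTGCNNAA (C/EBP), and where matches overlap the capitals run together.
Klf6, kept, chr13:5875536-5875735: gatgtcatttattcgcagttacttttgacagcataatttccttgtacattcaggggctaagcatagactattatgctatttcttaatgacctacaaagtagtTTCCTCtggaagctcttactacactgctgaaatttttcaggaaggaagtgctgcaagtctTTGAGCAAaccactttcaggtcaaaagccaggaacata
Klf3, kept, chr5:64812664-64812863: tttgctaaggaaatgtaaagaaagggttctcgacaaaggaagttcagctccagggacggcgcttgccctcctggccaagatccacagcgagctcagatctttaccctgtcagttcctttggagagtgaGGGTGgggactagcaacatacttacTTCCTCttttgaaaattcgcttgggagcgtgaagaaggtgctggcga
Klf7, kept, chr1:64118285-64118484: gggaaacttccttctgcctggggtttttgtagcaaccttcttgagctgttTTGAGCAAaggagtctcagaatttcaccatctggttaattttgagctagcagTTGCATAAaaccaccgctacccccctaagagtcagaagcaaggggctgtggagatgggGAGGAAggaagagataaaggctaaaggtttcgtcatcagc
Klf6, lost, chr13:5870395-5870574: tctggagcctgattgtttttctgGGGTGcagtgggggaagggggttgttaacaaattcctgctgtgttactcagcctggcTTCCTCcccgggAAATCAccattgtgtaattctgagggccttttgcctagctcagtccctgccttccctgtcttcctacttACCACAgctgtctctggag
Klf3, lost, chr5:64794046-64794245: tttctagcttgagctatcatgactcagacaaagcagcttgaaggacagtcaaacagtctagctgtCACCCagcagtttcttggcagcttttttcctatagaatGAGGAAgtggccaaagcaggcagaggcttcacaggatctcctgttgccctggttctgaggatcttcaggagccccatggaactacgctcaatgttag
Klf13, lost, chr7:63911361-63911560: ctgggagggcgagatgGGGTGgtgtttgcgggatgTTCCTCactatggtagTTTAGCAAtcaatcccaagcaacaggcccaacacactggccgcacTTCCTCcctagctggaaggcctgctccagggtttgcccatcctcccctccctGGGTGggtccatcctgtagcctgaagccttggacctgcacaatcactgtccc

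The kept Klf6 window held 1 match to GAGGAA and 1 to TTGCNNAA, the kept Klf3 window 1 to GAGGAA and 1 to CACCC, and the kept Klf7 window 1 to GAGGAA and 2 to TTGCNNAA. The lost Klf13 window shown held 2 to GAGGAA, 2 to CACCC and 1 to TTGCNNAA. AAATCA was found in 1 of the 23 windows, that of the lost site at the end of Klf6, while 12.0% of the windows of all 35728 sites on assembled chromosomes held it. GAGGAA was found in 14 of 23 windows (46.1% of all windows), 4 of the 6 kept and 10 of the 17 lost. CACCC, the letters that KLF proteins themselves recognise, was found in 10 (35.6% of all), 3 kept and 7 lost, TTGCNNAA in 8 (17.3%) and TGTGGT in 1 (23.9%). A match is a description of letters and does not show that a factor was bound.

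H3K4me2 peaks covered more of the window at most of these loci in preNeu cells than in GMPs. The strongest peak at any member had a fold enrichment of 5.36 in GMPs, 15.6 in preNeu and 14.7 in matNeu cells. Each list came from 1 library, and the part of library strength in the coverage and the peak widths was not tested. The mark covered 13.6% of the Klf6 window in GMPs, 60.1% in preNeu cells and 58.9% in matNeu cells. For Klf7 the coverage was 4.68%, 28.7% and 31.6%, for Klf2 16.3%, 37.8% and 38.4%, for Klf3 16.8%, 38.3% and 32.7%, and for Klf13 36.8%, 60.3% and 56.6%. Klf5 had 5.96%, 11.6% and 11.9%, Klf10 20.3%, 38.0% and 27.4%, and Klf1 32.0%, 39.7% and 33.6%. Only Klf4 among the 9 went down at both steps, from 20.7% to 11.4% and 6.63%.

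The lists as a whole grew as well, with 49.8 Mb under peaks in GMPs, 97.9 Mb in preNeu cells and 80.4 Mb in matNeu cells. The median coverage over all tested protein-coding genes was 7.29%, 12.8% and 10.1%, and over the 9 members 16.8%, 38.0% and 32.7%. Summed over the members the covered length was 68720, 148549 and 140457 bp. The Klf1 window holds 3 other coding genes (Gcdh, Dnase2a and Mast1), and part of its coverage lies over them.

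**Figure D4:**
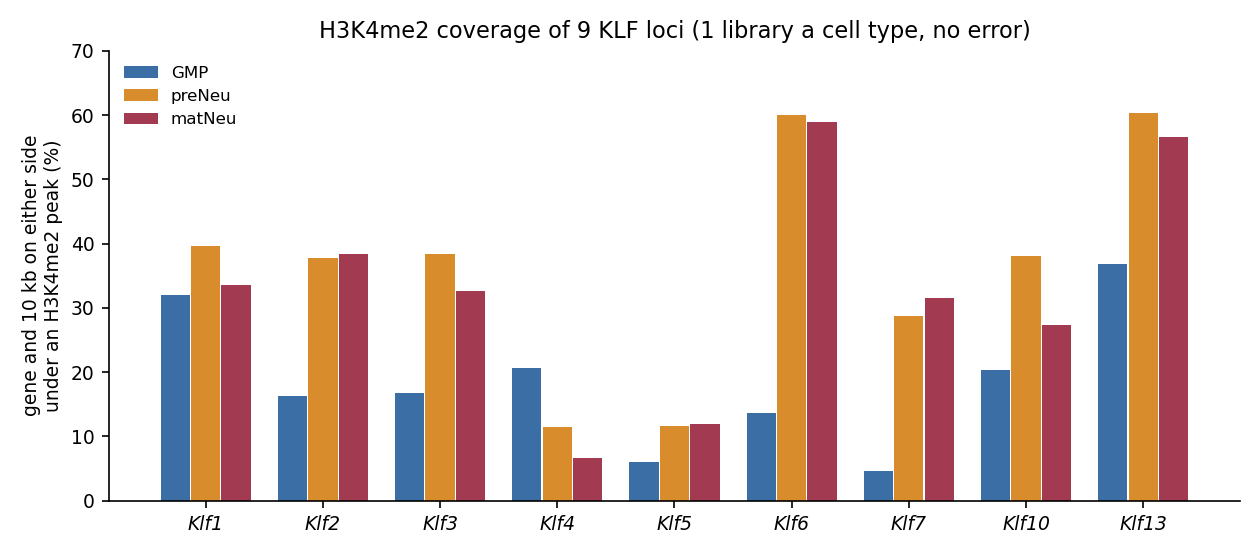
Share of each KLF locus (gene and 10 kb on either side) under an H3K4me2 peak, in percent (vertical axis), for GMP, preNeu and matNeu cells, from 1 library each and without error bars. Klf6 goes from 13.6% to 60.1% and 58.9%, and Klf4 from 20.7% to 11.4% and 6.63%.

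Single peaks show the shape of these differences between the lists. In GMPs Klf6 had 4 separate H3K4me2 peaks of 186 to 2667 bp, none over its TSS. In preNeu cells 1 peak of 17364 bp ran from upstream of the TSS past the strongest downstream CHD4 site, and in matNeu cells 1 of 17037 bp. At Klf3 the GMP peaks of 5446 and 2614 bp were replaced by 1 of 13040 bp in preNeu and 12628 bp in matNeu cells, which held the strongest Klf3 CHD4 site. The peak over the TSS of Klf13 measured 7301, 17350 and 18538 bp in the 3 stages, that of Klf7 3220, 8483 and 13988 bp, and that of Klf2 2237, 8133 and 8678 bp.

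The Klf5 TSS peak was 2165, 4207 and 4008 bp wide. It was thus already present in GMPs, where the gene was under 1 TPM. At Klf10 the TSS peak kept nearly the same width, at 5254, 5871 and 5176 bp. At Klf4 it narrowed from 5246 to 2884 and then 1679 bp, while a peak over the TSS remained in all stages. The fold enrichment of that peak was 3.62 in GMPs, 7.42 in preNeu and 6.87 in matNeu cells. At the TSS of Klf10 the values were 3.72, 13.8 and 10.7, and fold enrichments of separate lists are not on a common scale.

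An H3K4me2 peak covered the outermost TSS of 7 members in GMPs, 8 in preNeu cells and 8 in matNeu cells, beside 74.2%, 86.5% and 84.8% of all tested genes. Klf1 had none in any list, and Klf6 had none in GMPs. In the ATAC-seq list the TSS of 7 members lay in a peak, beside 53.7% of all tested genes, and those without were Klf1 and Klf4. The Klf4 window held no ATAC-seq peak at all.

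Most CHD4 sites of these genes lay under an H3K4me2 peak in the preNeu and matNeu lists. In GMPs 11 of the 23 sites (47.8%) overlapped an H3K4me2 peak, and 22 (95.7%) did in preNeu and in matNeu cells alike. Over all 35790 CHD4 sites the shares were 37.8%, 59.5% and 52.5%. Since several sites of a gene can lie under 1 wide peak, the 23 sites are not independent of each other.

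**Figure D5:**
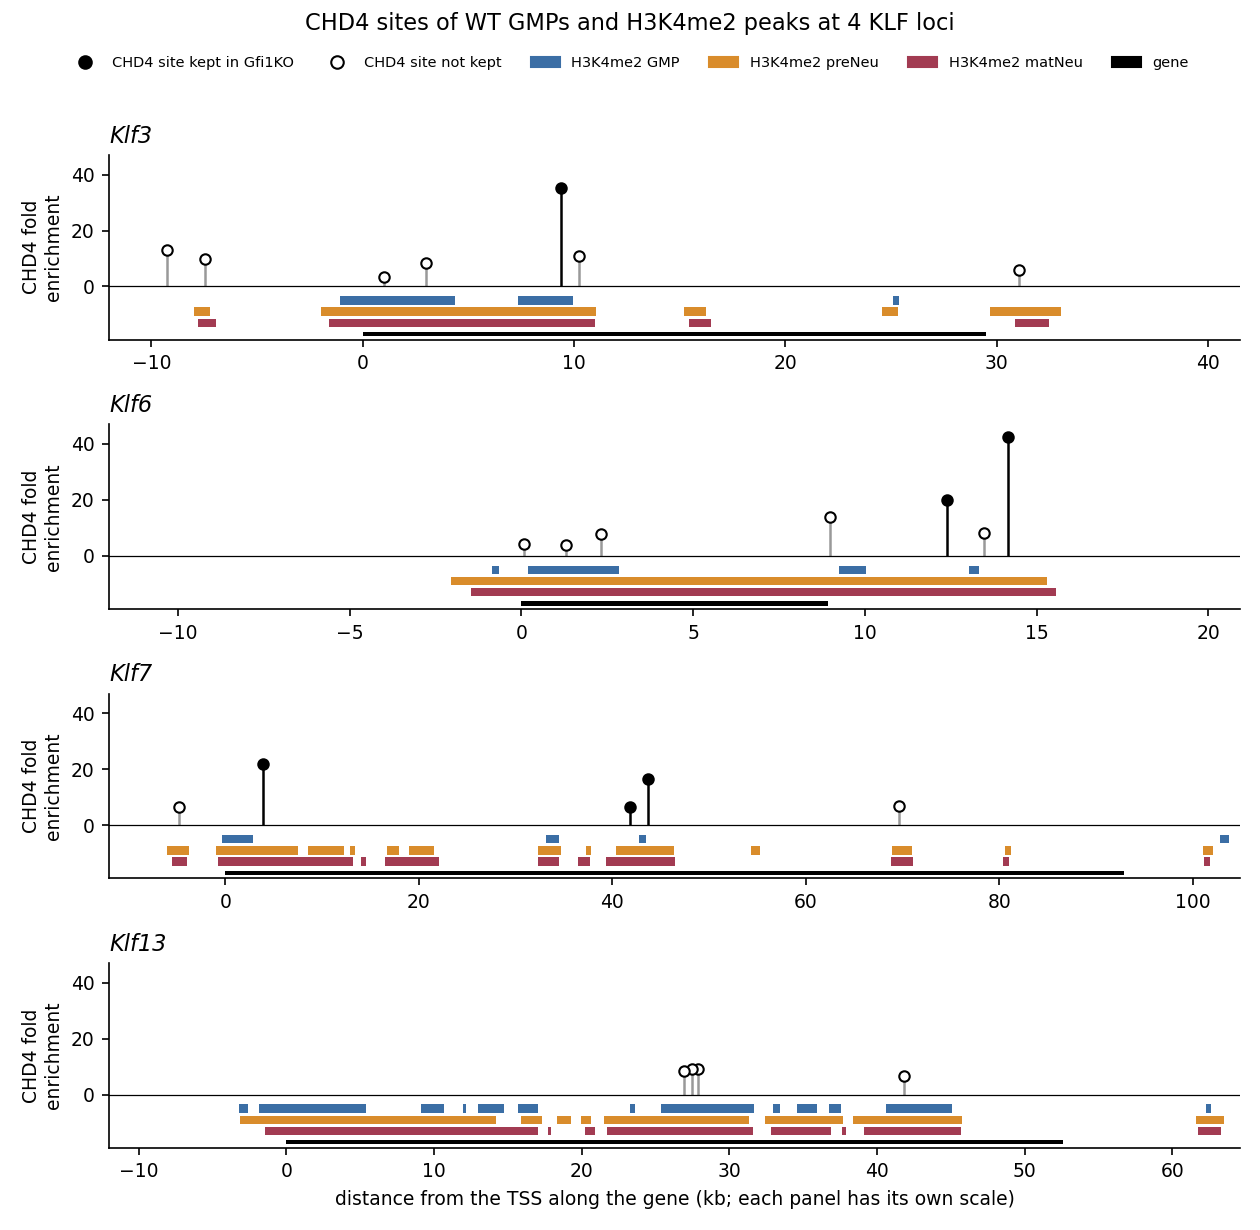
CHD4 sites of WT GMPs (stems, fold enrichment on the vertical axis) and H3K4me2 peaks (bars below 0, coloured by cell type) at Klf3, Klf6, Klf7 and Klf13, against the distance from the TSS in kb. Filled symbols are the 6 sites kept in Gfi1KO GMPs, among them the site of 42.5 downstream of Klf6, and the preNeu and matNeu bars of Klf6 are single blocks over the gene.

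The sequence before the TSS is shown for 3 members that differ in level and in H3K4me2 coverage: Klf2 and Klf6, which rose, and Klf4, which fell. RefSeq sequences of GRCm38 were found for 7 of the 9 members. Shown are the 220 bases nearest to the first annotated exon, on the strand of the gene, 5′ to 3′. Capitals mark matches on either strand to CCAAT (the box bound by NF-Y), to CACCC (KLF), to GGGCGG (the GC box of SP and KLF proteins), to TGACG (part of the cAMP response element) and to TATAAA (the TATA box), and overlapping matches run together.
Klf2, chr8:72318813-72319032, plus strand: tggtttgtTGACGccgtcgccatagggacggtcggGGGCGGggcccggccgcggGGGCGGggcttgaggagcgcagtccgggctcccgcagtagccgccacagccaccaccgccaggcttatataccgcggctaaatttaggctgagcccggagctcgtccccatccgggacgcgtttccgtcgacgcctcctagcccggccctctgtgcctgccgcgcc
Klf6, chr13:5861262-5861481, plus strand: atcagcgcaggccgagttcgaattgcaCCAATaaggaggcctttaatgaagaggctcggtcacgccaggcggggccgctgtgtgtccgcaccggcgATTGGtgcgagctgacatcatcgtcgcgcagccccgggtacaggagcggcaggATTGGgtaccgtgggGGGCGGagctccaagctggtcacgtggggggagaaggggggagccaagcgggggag
Klf4, chr4:55532476-55532695, minus strand: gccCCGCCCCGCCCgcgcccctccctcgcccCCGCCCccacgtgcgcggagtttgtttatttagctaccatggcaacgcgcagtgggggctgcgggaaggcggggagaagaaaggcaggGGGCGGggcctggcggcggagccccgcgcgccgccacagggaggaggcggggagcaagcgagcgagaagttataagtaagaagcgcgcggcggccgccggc

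In the 250 bases before the RefSeq start, Klf6 had 4 matches to CCAAT and 1 to GGGCGG, Klf2 had 2 to GGGCGG, 1 to CACCC and 1 to TGACG, and Klf4 had 4 to GGGCGG, 1 to TGACG and none to CCAAT or CACCC. The GC box was found at 6 of the 7 members (32.7% of 32851 promoters) and CACCC at 5 (52%). CCAAT and TGACG were each found at 3 members (33.9% and 17.8%), and TATAAA at 0 of 7 (12.4%). The share of G and C was 64.8% at Klf6, 71.2% at Klf2 and 74.0% at Klf4, above the median of 52.4% over all promoters, and 49.2% at Klf1, below it.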

How the data were processed

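RNA-seq, ChIP-seq and ATAC-seq of sorted mouse bone marrow cells were grouped by sample title. Gene levels were deposited by the authors in TPM, a unit that keeps no read depth. How TPM was computed is not stated: the labels describe TopHat and HTSeq, and the submitters' processing notes also name kallisto 0.44.0. The authors deposited 1 peak list per library, with a fold enrichment over background (a linear ratio) and a −log10 q-value per peak. The deposited score of each peak was not used. The processing notes name BWA 0.7.17, MACS2 2.1.0 and mm10, and no listed peak passed a chromosome end of GRCm38. Lists for GFI1 and H3K4me3 held 1534 and 1330 peaks on chromosomes that the mouse does not have and were not used.

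The 9 KLF genes and the gene lists were chosen with earlier results of these data known. Every member is named, and for each member the 2 genes most like it. From most lists, up to 4 tested genes are described, by smallest adjusted p in either successive step. The monocyte and macrophage list is an exception, with more genes named, some of them after their values were seen. Expression was fitted with limma 3.58.1 (R 4.3.3) on log2(TPM + 1), with cell type as the only term, all 9 libraries, a trend in the variance and Benjamini-Hochberg adjustment at 0.05. The fit was tested on simulated data with known changes. It called 38 of 104 changes of 1 on the log2 scale and 70 of 96 changes of 2, beside 8 false calls. A change that was not called can therefore still be present. Same-numbered libraries had correlations of their deviations between -0.039 and 0.123, and differently numbered ones between -0.128 and 0.071. Small correlations cannot exclude pairing, so whether replicate numbers pair the samples is not settled. Peaks were assigned by GENCODE M21 with Python 3.11.15 and pandas 2.3.3, a site was kept if a Gfi1KO peak overlapped it by at least 1 bp, and sequences were read with samtools 1.23.1. Alternatives were another pseudocount, other filters and scalings, a fit of 6 libraries, a replicate block, no trend, leaving out each library, and other peak thresholds, windows and overlaps.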

Additional observations from a re-analysis of the deposited data

How the results depend on the processing

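The counts of called members stayed within 1.5 times of those reported in every alternative run, at 7 to 9 for preNeu against GMP, 5 to 7 for matNeu against preNeu and 6 to 9 for matNeu against GMP. With a replicate block they were 9, 6 and 8, as without it, and every member kept its call, so that the paired fit changed no call. Over all settings that keep every library, 206 single changes kept direction and call and 4 did not, all of them of Klf10: against preNeu the matNeu change of -0.42 became 0.045 after rescaling by the median ratio (adjusted p = 0.815) and passed the threshold in the fit of the 6 libraries alone (adjusted p = 0.0443), and against GMP it was called under both scalings (1.13 and 1.06). When single libraries were left out, 6 changes of Klf7 and Klf10 lost their call and 4 of Klf10 gained one. Klf1 was not tested without any 1 of the GMP libraries, nor Klf1 and Klf4 at a minimum of 5 TPM. CHD4 sites at members numbered 46 with 50 kb on either side, of which 11 were kept, in place of 23 and 6. With −log10 q-values limited to 5 or more, the H3K4me2 length in GMPs was 31034 bp in place of 68720 bp. In preNeu cells it was then 140953 bp and in matNeu cells 126369 bp. Many GMP peaks at the members lay under this cut. The wider gap therefore depends on the strength of each library and is no support for a difference between stages. The depth of the ChIP-seq libraries, which limits peak numbers, is unknown.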
